A study of Mus musculus with 12 samples.

Results

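The Hox genes of the mouse lie in 4 clusters and were taken as the genes whose symbol is Hox, a cluster letter from a to d and a number. The table of 21030 genes held 39 of them, 11 in HoxA, 10 in HoxB, 9 in HoxC and 9 in HoxD. The cells came from the embryonic day 12 spinal cord of wild-type C57BL/6 mice, were dissociated with trypsin and were grown for 48 hours at 500000 cells a well. The study compared 4 coats: myelin membranes (10 μg/ml) over poly-D-lysine (Myelin), laminin at 1 μg/ml over poly-D-lysine (Laminin), both (Laminin + Myelin), and poly-D-lysine alone at 20 μg/ml (PDL), which all wells carried. Each coat had 3 libraries, numbered 1 to 3 and called biological replicates by the labels, which do not say what a number stands for or whether it marks a litter or a day. A p-value from a fit of coats alone therefore measures the spread between these libraries. Where the number is also a term in the fit, it measures the scatter left after coat and number. The cells are a dissociated mixture of the cord, so fewer cells of a type and less RNA per cell cannot be told apart.

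Hox genes encode homeodomain transcription factors that give cells their position along the head-to-tail axis. Within a cluster the genes are numbered from the 3′ end, with genes of low number active in the hindbrain and upper cord and genes of high number only further back, so the set of Hox genes a sample expresses reads as its axial level. Genes of the same number in different clusters are paralogs. In the spinal cord, Hox proteins of the middle numbers mark neck, forelimb and trunk levels and set the motor columns there, those numbered 10 mark the lumbar cord, and those numbered 11 to 13 mark its sacral and tail end.

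The 4 clusters each span a compact stretch of GRCm38 (GENCODE M21). HoxA covers 105 kb of chromosome 6 (52155590 to 52260880, minus strand) and HoxB 174 kb of chromosome 11 (96194316 to 96368256, plus strand). HoxC covers 116 kb of chromosome 15 (102921103 to 103036852, plus strand) and HoxD 96.8 kb of chromosome 2 (74668310 to 74765142, plus strand). Of the 39 genes, 23 overlap another annotated gene, 14 of them a gene on the other strand. The strand setting of the counting is not given in the sources used here, so reads of such pairs can be mixed.

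Gene counts ranged from 36061511 to 45024091 a library, and Hox genes took 0.288% to 0.338% of them in each of the 12. Neuron transcripts were abundant: the 7 neuron markers summed to 7989 to 10255 CPM (read counts scaled to library size with TMM factors). The 7 progenitor markers summed to 423 to 902 CPM. Such sums over different genes do not give the shares of the cell types. Reads outside annotated genes were 10.8% to 12.4% on Myelin, 8.46% to 13.7% on Laminin, 11.01% to 11.9% on Laminin + Myelin and 17.4% to 19.4% on PDL. Libraries of the same number resembled each other across coats: the deviations of log2 CPM from the coat means correlated by 0.218 to 0.83 in the 18 same-numbered pairs and by -0.77 to 0.243 in the 36 others, and leaving out the Hox genes changed these ranges little (0.214 to 0.827 and -0.766 to 0.25).

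The clusters also carry microRNAs, among them a pair of families known to target Hox transcripts. The miR-10 pair lies beside Hoxb4 and Hoxd4, and the miR-196 genes lie beside genes numbered 9. Their mature sequences (RefSeq, GRCm38.p6) are shown by family, with the seed, bases 2 to 8, in capitals. Each family is one sequence apart from base 12, where miR-10a and miR-10b differ by U12A and miR-196a and miR-196b by A12C, counted from the 5′ end. The Mir196a-1 and Mir196a-2 genes give the same mature RNA.
miR-10a-5p, chromosome 11: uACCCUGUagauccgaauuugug
miR-10b-5p, chromosome 2: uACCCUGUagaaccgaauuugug
miR-196a-5p, chromosomes 11 and 15: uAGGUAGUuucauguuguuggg
miR-196b-5p, chromosome 6: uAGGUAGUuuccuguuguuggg

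The best-known target of miR-196 is Hoxb8, which was also the most abundant Hox transcript of these cultures. In the 3′ UTR of transcript Hoxb8-201 a stretch of 22 bases at chr11:96284888-96284909 (GRCm38, plus strand) pairs with all 22 bases of miR-196a, 21 by Watson-Crick pairs and 1 by a G:U pair at base 5 of the microRNA. The capitals mark the bases opposite the seed.
miR-196a site in Hoxb8: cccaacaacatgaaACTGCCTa

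The 39 genes differed in level by more than 4 orders of magnitude, and HoxB led. Per kb of exon, Hoxb8, a trunk-level gene, stood at 251 ± 34.5 CPM per kb (SD, n = 12), followed by Hoxb9 at 174 ± 13.4 and Hoxa5, a neck- and forelimb-level gene, at 117 ± 13.5. Hoxb5 (79.9 ± 8.48) and Hoxb3 (70.9 ± 8.83) came next. The ranges of neighbours in this order overlapped: Hoxb8 reached down to 191 and Hoxb9 up to 204, and Hoxa5 down to 96.1 and Hoxb5 up to 98.2. The ranges of Hoxb9 (from 159) and Hoxa5 (to 132) did not.

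The leading gene of HoxC was Hoxc4, at 36.8 ± 6.30 CPM per kb, and that of HoxD was Hoxd3, at 42.4 ± 5.74. By cluster, HoxB took 62.1% ± 0.965 of all Hox counts, HoxA 17.5% ± 0.530, HoxC 10.9% ± 0.957 and HoxD 9.56% ± 1.19 (SD, n = 12). By paralog number, the 15 genes numbered 4 to 8 took 59.1% ± 2.75, the 5 numbered 2 to 3 took 20.97% ± 2.51 and the 4 numbered 9 took 17.2% ± 1.44. The 12 genes numbered 10 to 13 held 2.52% ± 2.13, with a far wider spread relative to their mean than the other groups given here.

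The expression limit was read as the highest number at 1 CPM or more in every library. It was Hoxa10, Hoxb9, Hoxc10 and Hoxd10, with 28 of the 39 genes past this level in all 12 libraries. At 0.5 CPM the count was 29, with Hoxd1 added, and at 5 CPM it was 26 and the limit of HoxD was Hoxd9 in place of Hoxd10. The next gene in each cluster was Hoxa11, Hoxb13, Hoxc11 and Hoxd11. Below the limit, Hoxb1 and Hoxd1, hindbrain genes of the 3′ end, also missed 1 CPM somewhere (from 0 and from 0.691 CPM). Hoxb13, a tail-end gene (chromosome 11, 96194316 to 96197447), had 0 to 3 counts a library, and Hoxa13, a gene of the limb tip and hindgut, also had 0 to 3.

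**Figure D1:**
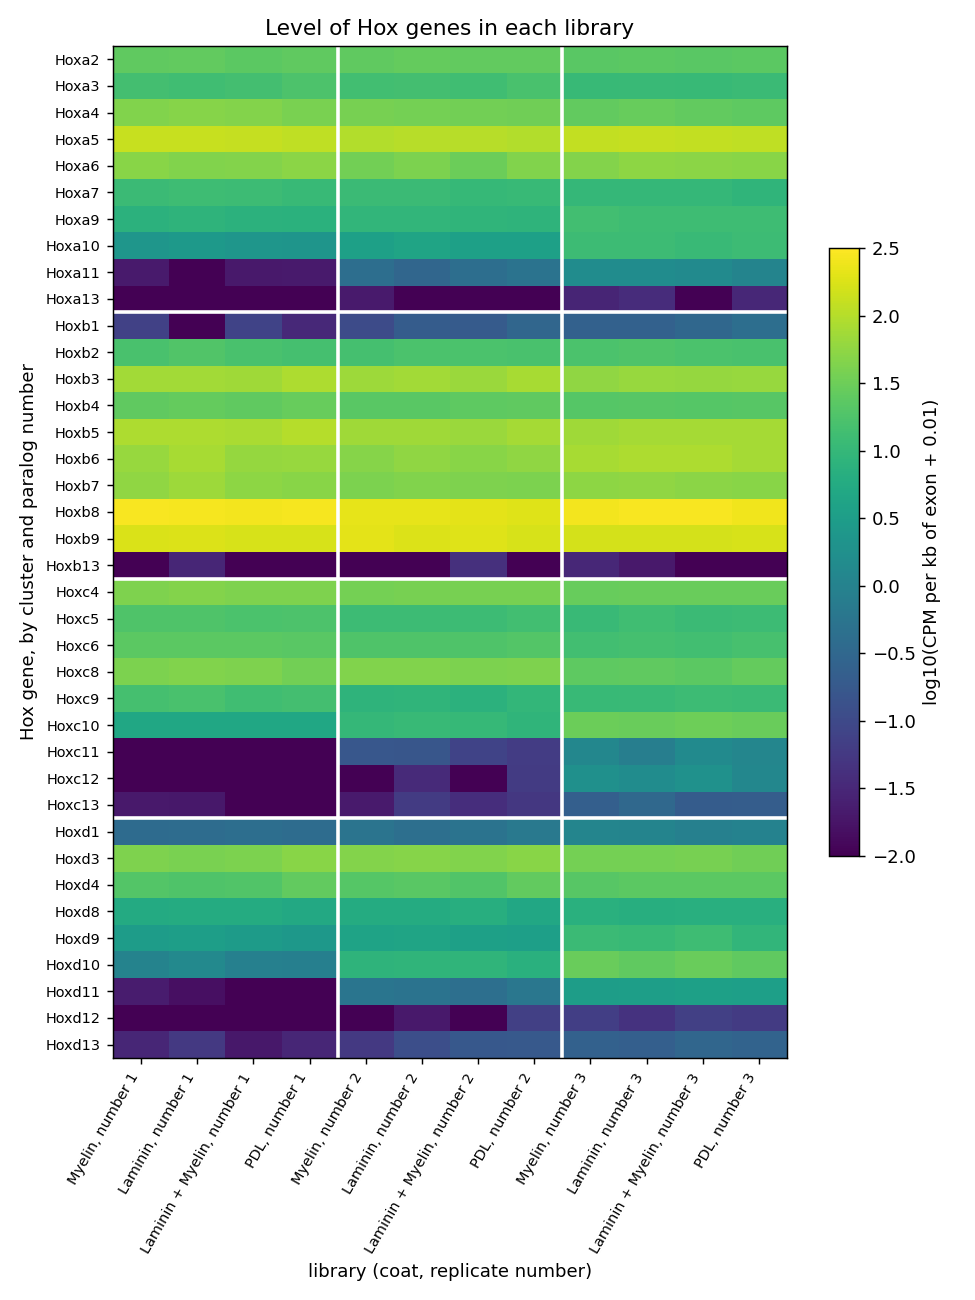
Level of Hox genes (rows, by cluster and paralog number) in each of the 12 libraries (columns, by replicate number and then coat), as log10 of CPM per kb of exon plus 0.01. The middle of each cluster is bright in all libraries, Hoxb8 most of all, and the rows numbered 10 and above brighten between the libraries numbered 1 and those numbered 3.

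The coats were the question of the study, and no Hox gene was called between them in the fit with coat as its only term. In the comparison of Myelin with PDL, 0 of the 36 Hox genes tested passed (edgeR quasi-likelihood test, Benjamini-Hochberg adjusted p under 0.05), where 2.29% of all 15737 genes did, and the median Hox log2 change was -0.01, against 0.02 over all genes. Unadjusted, 1 Hox gene lay under 0.05, and DESeq2 called 0. The median size of the change, sign aside, was 0.10 for the Hox genes and 0.18 for all genes. In simulated data this comparison recovered 3% of 1.5-fold changes and 68% of 2-fold changes, so changes of that size can be missed. The simulation gave all genes the same spread and no difference between replicate numbers. The recovery for a given Hox gene can therefore differ, above all where its level differs between numbers. In Laminin + Myelin against PDL, which shares the PDL libraries, 0 Hox genes passed where 1.25% of all genes did, with a median of -0.01 and 1 gene under an unadjusted 0.05.

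Laminin against PDL gave 0 Hox genes and 0 of all genes (0.0%) by edgeR's adjusted p, with 2 Hox genes and 2735 of all genes under an unadjusted 0.05. Adding myelin to laminin gave 0 Hox genes, where 0.0191% of all genes passed, and the myelin effect averaged over laminin gave 0, where 0.0254% did. The interaction, which tests whether myelin acted differently with and without laminin, gave 0 Hox genes and 0 of all genes (0.0%, edgeR), with 0 Hox genes under an unadjusted 0.05. DESeq2 also called 0 Hox genes in each of these 4 comparisons. In the authors' deposited table, 0 of the 39 Hox genes had an adjusted p under 0.05 in any of the 6 pairs of coats, and the lowest was 0.292, for Hoxd4 in Myelin against PDL.

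The call differed with the replicate block for 3 genes of low number, all with their highest mean on PDL. Hoxb7 in Laminin against PDL came close to the threshold with the block (0.25 ± 0.07, edgeR adjusted p = 0.0505), and without it the lowest adjusted p of that comparison was 0.253, for Hoxb2. Hoxd4, expressed from the hindbrain back (chromosome 2, 74711929 to 74729160), stood at 57.4, 60.1 and 63.4 CPM on Myelin (libraries 1, 2 and 3), at 54.5, 65.0 and 68.3 CPM on Laminin, at 56.6, 56.9 and 69.3 CPM on Laminin + Myelin and at 78.7, 76.2 and 69.3 CPM on PDL. All Myelin and all Laminin libraries lay below all PDL libraries, while number 3 of Laminin + Myelin and of PDL were level. No other Hox gene had all Myelin libraries on one side of PDL, where 26.1% of all genes did, and for Laminin, where 21.9% of all genes did, Hoxb2 alone joined it, with Laminin above PDL. The log2 change of Hoxd4 in Myelin against PDL was -0.31 ± 0.11 (SE; edgeR adjusted p = 0.157). Blocking on replicate number gave -0.31 ± 0.09 (adjusted p = 0.0399).

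Hoxa3, a gene of the hindbrain and throat region (chromosome 6, 52169062 to 52213336), stood at 84.3, 82.0 and 64.3 CPM on Myelin, at 79.9, 87.2 and 67.8 CPM on Laminin, at 85.7, 79.1 and 64.1 CPM on Laminin + Myelin and at 105, 98.7 and 69.1 CPM on PDL. PDL was the highest coat within each number. Its change in Myelin against PDL was -0.24 ± 0.17 (edgeR adjusted p = 0.511), and -0.23 ± 0.07 with the replicate block (0.047). Hoxb3, its HoxB paralog (chromosome 11, 96323326 to 96347930), stood at 316, 297 and 244 CPM on Myelin, at 314, 325 and 274 CPM on Laminin, at 313, 280 and 258 CPM on Laminin + Myelin and at 375, 345 and 275 CPM on PDL. PDL was again highest within each number, by a margin that was small in number 3, and the change was -0.22 ± 0.13 (0.449), and -0.21 ± 0.07 with the block (0.0498).

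With the block, these 3 Hox genes were the ones called in Myelin against PDL, where 14.4% of all genes were, and the 3 genes called in Laminin + Myelin against PDL (13.6% of all genes), with changes of -0.30 for Hoxd4, -0.24 for Hoxa3 and -0.22 for Hoxb3 (edgeR adjusted p = 0.0474, 0.0422 and 0.0475). All 3 overlap annotated genes on the other strand, and the share of reads outside genes was highest on PDL. When that share entered the fit as a covariate, the change of Hoxd4 turned to 0.07 in both comparisons (edgeR adjusted p = 0.858 and 0.86). In the same fit with the block, each of the 3 turned above 0 in Myelin against PDL. The share was higher in all 3 PDL libraries than in the other 9, so it and the coat cannot be told apart, and with it in the fit 0 of all genes passed in either comparison (edgeR; 1639 and 1548 under an unadjusted 0.05 without the block). Beyond that, the part of these reads in the result was not tested. The other 4 comparisons had 0 Hox genes with the block, where 8.15% of all genes passed in Laminin against PDL, 8.63% for myelin averaged over laminin, 0.102% for myelin added to laminin and 0.0% for the interaction. With 1 library left out, the block gave 0 to 5 Hox genes in Myelin against PDL and 0 to 4 in Laminin + Myelin against PDL. Of the 16 noncoding and neighbouring genes of the clusters tested, 0 passed in Myelin against PDL without the block and 4 fell with it, Smug1 (-0.38 ± 0.07, edgeR adjusted p = 0.00576), Hoxaas3 (-0.68 ± 0.14, edgeR adjusted p = 0.00953), Hoxd3os1 (-1.19 ± 0.27, 0.016) and the Mir10a row (-1.95 ± 0.48, 0.0213).

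**Figure D2:**
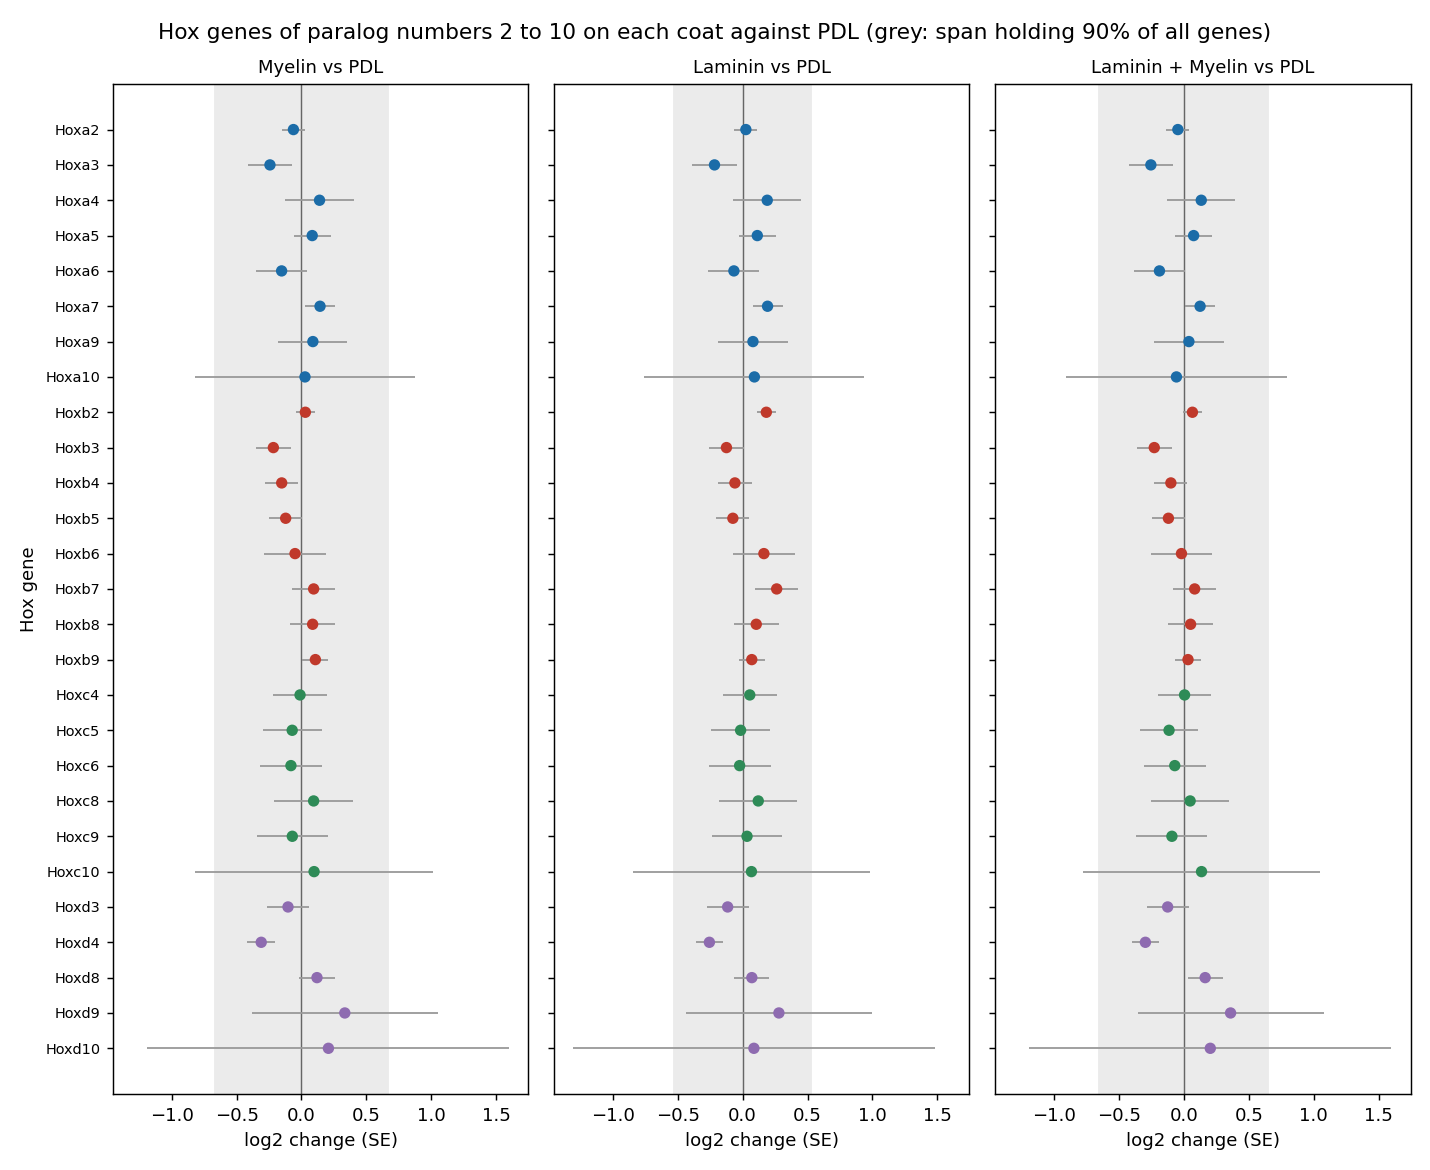
The log2 change (points, with SE) of the Hox genes numbered 2 to 10 on Myelin, Laminin and Laminin + Myelin, each against PDL, from the edgeR fit without a replicate block. The points lie inside the grey span that holds 90% of all genes tested, and the widest bars belong to the genes numbered 10 and to Hoxd9, whose libraries differ by replicate number.

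By the size of the change, the Hox genes differed far more between replicate numbers than between coats. Sign aside, the median Hox log2 change was 0.57 between numbers 1 and 3 and 0.10 in Myelin against PDL. Over all genes it was 0.22 and 0.18. The counts called came from unlike fits, since the coats were fitted with no term for the number. P-values between numbers measure the scatter left after coat and number, and not the spread between further numbers. Between the libraries numbered 1 and those numbered 3, with coat as a term in the fit, 28 of the 36 Hox genes tested passed (12 higher and 16 lower in number 1), where 43.9% of all genes did (20.8% higher and 23.1% lower). A few of the lowest genes, such as Hoxc12 and Hoxc13, entered the test through their counts in number 3 alone, so these counts are a description of the 36. Over all 39, 13 genes had all 4 libraries of number 1 above all 4 of number 3 and 16 had them all below, where 16.1% and 18.9% of the genes tested did (34.9% in either direction). The direction went with position in the cluster: all 9 tested genes numbered 10 to 13 were lower in number 1, as were Hoxb1 and Hoxd1, while 11 of the 20 numbered 2 to 8 were higher and 2 were lower. Of the 10 genes with the largest fitted change in the whole table, 4 were Hox genes, though for genes at or near 0 the fitted size depends on the prior count.

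The lumbar genes numbered 10 had the clearest levels. Hoxd10 (chromosome 2, 74691924 to 74695105), which with its paralogs sets hindlimb motor neurons, stood at 1.83, 2.40, 1.65 and 1.59 CPM in the libraries numbered 1 (Myelin, Laminin, Laminin + Myelin and PDL, in this order throughout), at 15.0, 15.8, 15.7 and 13.1 CPM in number 2 and at 53.3, 46.3, 52.8 and 46.1 CPM in number 3. The 3 sets did not overlap, and the coats within a set differed little beside the gaps between sets. The log2 change of number 1 over number 3 was -4.73 ± 0.11 (SE; edgeR adjusted p = 2.46e-10), and the ratio within a coat lay between 0.0312 and 0.0519 in all 4 coats.

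Hoxc10 (chromosome 15, 102966796 to 102971893), also a lumbar motor column gene, stood at 8.98, 9.11, 9.12 and 9.17 CPM in number 1, at 19.1, 20.8, 19.4 and 16.9 CPM in number 2 and at 59.0, 55.6, 61.2 and 55.4 CPM in number 3. Hoxa10 (chromosome 6, 52231197 to 52240854), their HoxA paralog, stood at 7.43, 8.62, 7.43 and 7.27 CPM in number 1, at 12.0, 13.9, 11.5 and 11.9 CPM in number 2 and at 40.1, 39.7, 37.4 and 39.3 CPM in number 3. Both again fell into 3 separate sets in the same order. Their changes in number 1 over number 3 were -2.67 ± 0.07 for Hoxc10 and -2.35 ± 0.07 for Hoxa10 (edgeR adjusted p = 5.44e-10 and 8.58e-10).

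Upstream sequence is shown for 4 genes: Hoxd10 and Hoxa10, which were lowest in number 1, Hoxb8, which was level between numbers 1 and 3, and Hoxd4, whose call between coats differed with the block. Each is the 250 bases before a RefSeq start site (GRCm38.p6), for which 22 of the 39 Hox genes had an entry (24 windows). Capitals mark TTTATG, the core read by CDX factors and posterior Hox proteins, and AGGTCA, the half-site of retinoic acid receptors, each searched on both strands. On the other strand TTTATG reads CATAAA. The other strand of the receptor half-site AGGTCA reads TGACCT. The first motif was found in 10.8% of all 32851 windows and in 5 of the 24 Hox windows, those of Hoxa7, Hoxb8, Hoxd3, Hoxd4 and Hoxd11. The half-site was found in 14.02% of all windows and in 6 of the 24 (Hoxb4, Hoxc4, Hoxd3, Hoxd4, Hoxd8 and Hoxd10). TGACAG, the core of the MEIS cofactors, was found in 15.9% of all windows and in 2 of the 24, those of Hoxa2 and Hoxa3. The median number of CG pairs was 12.5 in a Hox window and 6 in all windows. A match is a description of these letters and not a site.
Hoxd10, chr2:74691641-74691890, plus strand: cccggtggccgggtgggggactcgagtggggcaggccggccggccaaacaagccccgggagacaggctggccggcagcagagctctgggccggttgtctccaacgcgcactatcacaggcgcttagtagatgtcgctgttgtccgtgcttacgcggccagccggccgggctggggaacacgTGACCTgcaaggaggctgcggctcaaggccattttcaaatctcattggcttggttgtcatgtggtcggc
Hoxa10, chr6:52240855-52241104, minus strand: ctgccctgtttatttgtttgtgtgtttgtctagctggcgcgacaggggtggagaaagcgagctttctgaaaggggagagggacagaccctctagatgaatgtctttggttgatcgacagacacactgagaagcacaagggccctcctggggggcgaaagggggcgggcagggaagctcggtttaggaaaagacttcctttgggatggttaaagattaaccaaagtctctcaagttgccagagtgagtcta
Hoxb8, chr11:96281655-96281904, plus strand: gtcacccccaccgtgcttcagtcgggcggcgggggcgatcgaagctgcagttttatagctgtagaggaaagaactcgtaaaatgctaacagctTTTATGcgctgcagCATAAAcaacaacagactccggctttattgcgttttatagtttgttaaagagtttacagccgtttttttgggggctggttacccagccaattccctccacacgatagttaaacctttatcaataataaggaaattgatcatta
Hoxd4, chr2:74721728-74721977, plus strand: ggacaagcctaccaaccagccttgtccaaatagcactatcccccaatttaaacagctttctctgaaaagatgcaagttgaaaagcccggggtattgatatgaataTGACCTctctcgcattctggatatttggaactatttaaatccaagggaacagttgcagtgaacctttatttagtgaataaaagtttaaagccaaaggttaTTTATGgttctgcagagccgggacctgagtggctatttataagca

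The sacral and tail-end genes were at or near 0 in number 1. Hoxd11 (chromosome 2, 74679557 to 74687016), which patterns the sacral axis and the limb, had 3 counts over the 4 libraries numbered 1 (0 to 0.0494 CPM), 1.83 to 2.52 CPM in number 2 and 13.7 to 15.0 CPM in number 3. Pooled over the group, number 3 was 787 times number 1 (95% counting interval 269 to 3817). Hoxa11 (chromosome 6, 52242106 to 52245810), its HoxA paralog, had 0.0247, 0, 0.0235 and 0.0261 CPM in number 1, 0.939, 0.683, 0.928 and 1.18 CPM in number 2 and 3.48, 3.55, 3.19 and 2.41 CPM in number 3, and the pooled ratio of number 3 to number 1 was 174 (59.4 to 849). Both intervals cover counting error only, and in both genes the 3 sets of libraries were apart.

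Hoxc11 (chromosome 15, 102954427 to 102957708) had 0 counts in all 4 libraries numbered 1, 0.313, 0.304, 0.143 and 0.105 CPM in number 2 and 2.39, 1.70, 2.82 and 2.28 CPM in number 3. Taking 3 counts over the group as the upper limit that a count of 0 allows (0.0182 CPM), it was at least 11.7-fold higher in number 2 and at least 125-fold higher in number 3 than in number 1. Hoxc12 had 0 counts in number 1, 3 over the 4 libraries of number 2 and 266 over those of number 3, at least 90.8-fold higher in number 3 than in number 1. Hoxc13 had 2, 13 and 93 counts in numbers 1, 2 and 3, with number 3 at 47.6 times number 1 (12.8 to 399), Hoxd13 had 10, 48 and 102, at 10.4 times (5.46 to 22.4), and Hoxd12 had 0, 7 and 21. Hoxa13 had 0, 1 and 7 counts, at least 2.39-fold higher in number 3 than in number 1 by the same limit, which rests on 7 counts. Hoxb13 had 2, 3 and 3 counts, where no difference was detectable at this depth. The 5′ reach of the clusters at 1 CPM in all 4 libraries of a number was 28 genes in number 1, 29 in number 2 (adding Hoxd11) and 33 in number 3 (adding Hoxa11, Hoxc11, Hoxc12 and Hoxd11, and Hoxd1 at the 3′ end).

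Of the genes numbered 9, which mark the trunk, HoxD and HoxA members went with the lumbar genes and the other two did not. Hoxd9 (chromosome 2, 74697727 to 74700208) stood at 6.57, 7.24, 6.25 and 5.37 CPM in number 1, at 8.80, 8.98, 7.59 and 7.38 CPM in number 2 and at 24.9, 22.6, 27.3 and 19.2 CPM in number 3. Hoxa9 (chromosome 6, 52223100 to 52231089) stood at 43.4, 47.0, 44.1 and 41.1 CPM in number 1, at 51.6, 50.8, 49.5 and 47.9 CPM in number 2 and at 75.1, 71.3, 71.0 and 71.1 CPM in number 3. Their changes in number 1 over number 3 were -1.88 ± 0.10 and -0.72 ± 0.05 (SE; edgeR adjusted p = 6.67e-08 and 8.49e-07). Hoxc9, which holds thoracic motor neurons apart from limb ones, rose by 0.36 ± 0.08 (0.00238), and Hoxb9 had 0.08 ± 0.06 (0.289).

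**Figure D3:**
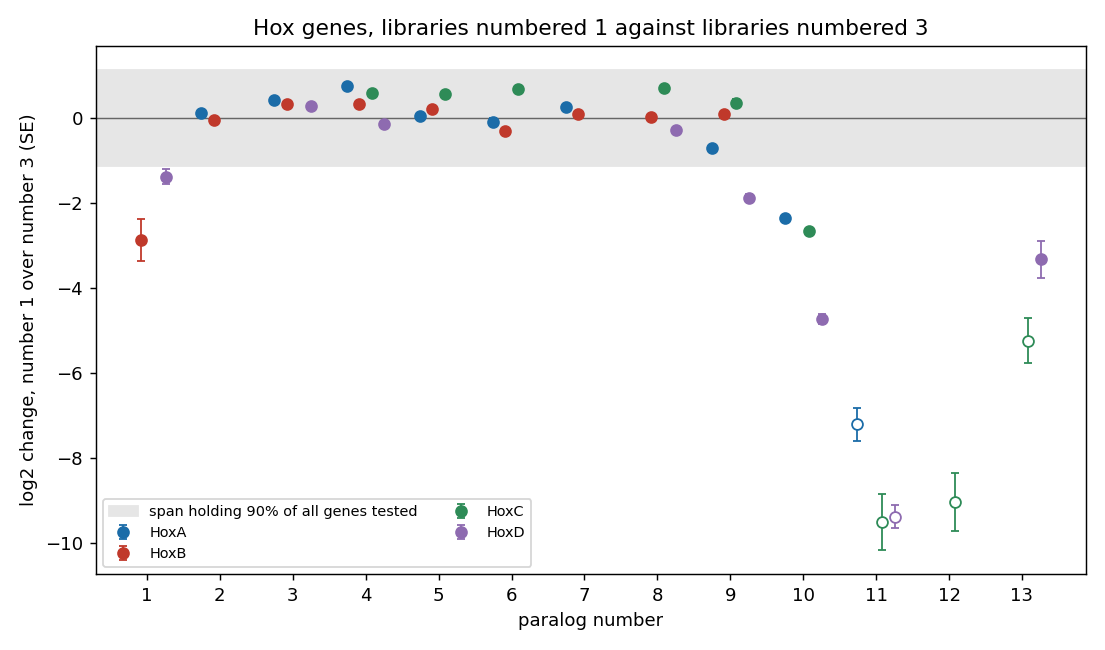
The log2 change of the libraries numbered 1 over those numbered 3 (points, with SE) for Hox genes, by paralog number and cluster. Genes numbered 2 to 8 lie near or above 0, inside the grey span that holds 90% of all genes, and those numbered 10 and above lie far below it. Open points have 3 counts or fewer in number 1, so their fitted size depends on the prior count.

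Across the 36 genes tested, the log2 change of number 1 over number 3 fell with paralog number by a Spearman rho of -0.53. This is a description of genes that share 12 libraries. Leaving out the genes numbered 1, which go against the trend, gave -0.72 over the other 33, a value made stronger by that choice. Both values include genes such as Hoxc12 and Hoxc13, which entered the test through their counts in number 3 alone. Hoxb1 and Hoxd1, at the 3′ end of their clusters, left the trend. Hoxb1, a marker of one hindbrain segment, had -2.88 ± 0.49 (SE; edgeR adjusted p = 0.000504) and Hoxd1 -1.39 ± 0.18 (5.93e-05), at levels under 1 CPM and between 0.691 and 2.03 CPM.

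The 12 genes that were higher in number 1 were numbered 3 to 9. Hoxa4 (chromosome 6, 52189671 to 52191753) stood at 70.4, 75.4, 73.5 and 63.1 CPM in number 1, at 60.9, 58.1, 56.6 and 54.4 CPM in number 2 and at 41.3, 45.3, 42.1 and 39.3 CPM in number 3, a change of 0.75 ± 0.05 for number 1 over number 3 (edgeR adjusted p = 8.17e-07). Hoxc4 (chromosome 15, 103018934 to 103036852) stood at 111, 119, 112 and 110 CPM in number 1, at 93.9, 95.9, 95.2 and 96.0 CPM in number 2 and at 74.0, 77.0, 75.6 and 75.1 CPM in number 3 (0.58 ± 0.05, 1.42e-06). Both genes had the 3 sets apart, in the reverse order of the lumbar genes.

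Hoxc6 (chromosome 15, 102998257 to 103011881), which marks forelimb motor neurons, stood at 55.3, 56.99, 56.5 and 54.5 CPM in number 1, at 43.6, 44.5, 43.1 and 47.5 CPM in number 2 and at 33.2, 36.1, 33.5 and 37.7 CPM in number 3 (0.67 ± 0.06, edgeR adjusted p = 2.31e-06). Hoxc8, which marks the lower neck and upper trunk cord, rose by 0.71 ± 0.07 (7.37e-06) in number 1 over number 3, with number 2 at the level of number 1. Hoxc5 (0.55), Hoxa3 (0.41), Hoxb4 (0.33), Hoxb3 (0.32), Hoxd3 (0.27), Hoxa7 (0.26) and Hoxb5 (0.21) also rose in number 1 over number 3, and Hoxb6 (-0.30) and Hoxd8 (-0.28) fell. The most abundant genes did not pass: Hoxb8 had 0.01 ± 0.06 (0.862), and Hoxa5 0.05 ± 0.05 (0.419). HoxD was the only cluster whose summed level was lower in number 1 (270 ± 30.3 CPM) than in number 2 (306 ± 15.8) and number 3 (328 ± 13.3 CPM, SD, n = 4 each), as a description.

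**Figure D4:**
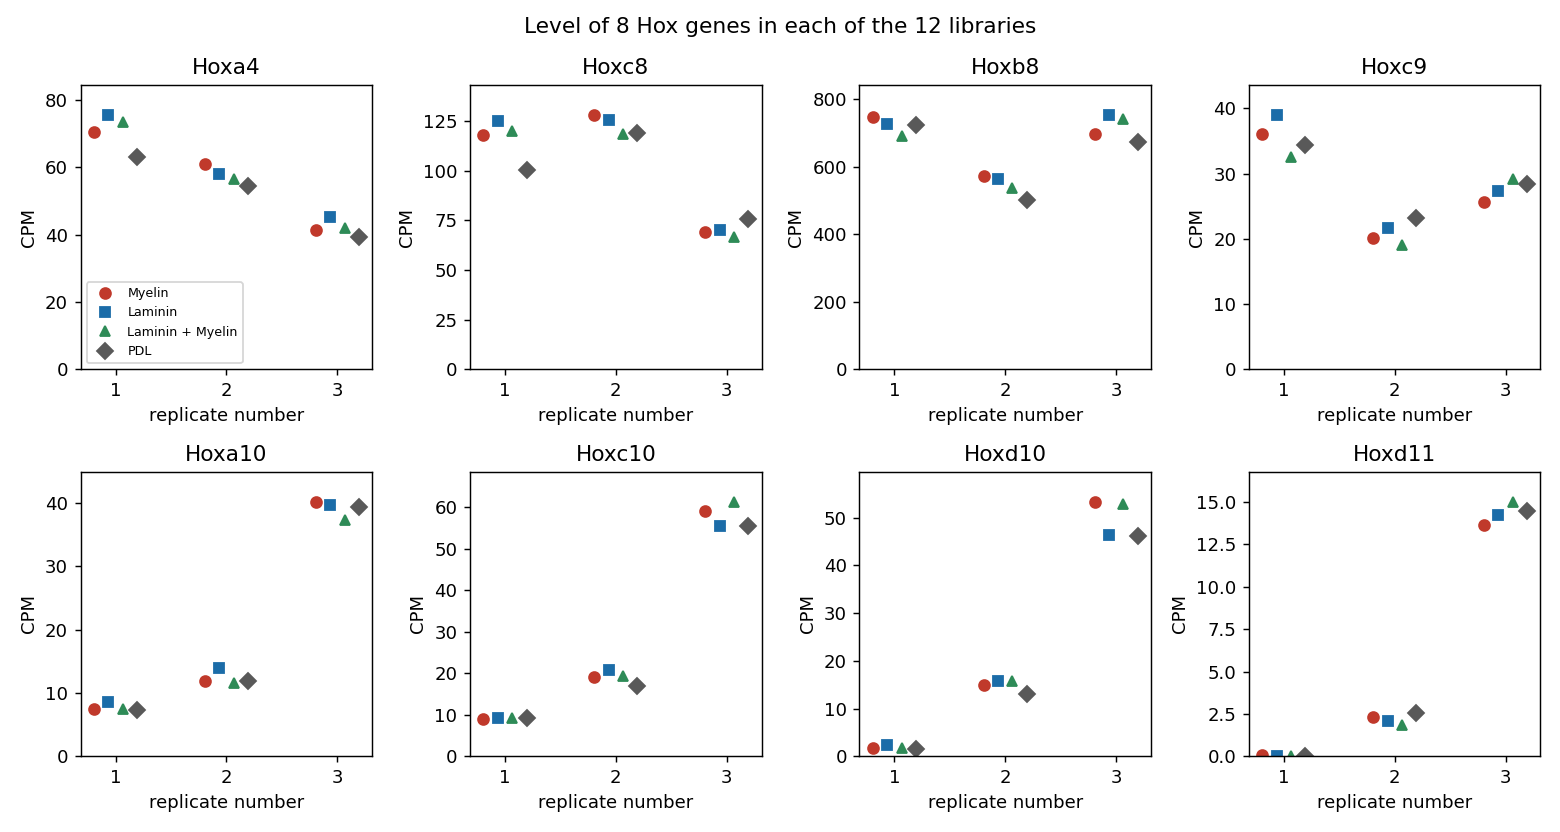
CPM (linear axes from 0) of 8 Hox genes in each of the 12 libraries, by replicate number, with the coat given by the marker. Hoxa10, Hoxc10, Hoxd10 and Hoxd11 are lowest in number 1 and highest in number 3 on every coat, Hoxa4 runs the other way, and Hoxb8 and Hoxc9 are lowest in number 2.

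The libraries numbered 2 did not lie between the others for every Hox gene. Against the mean of numbers 1 and 3, 14 of the 36 Hox genes tested passed (4 higher and 10 lower), where 2.65% of all genes did (1.75% higher and 0.902% lower). Leaving out 1 library at a time gave 11 to 20 Hox genes. Passing means a departure from the log2 mean of numbers 1 and 3, and number 2 can still lie between them. Over the 39, 6 genes had all 4 libraries of number 2 below all 8 others, where 0.432% of the genes tested did, and 0 had them above (0.718% in either direction). They were Hoxa5, Hoxa6, Hoxb6, Hoxb7, Hoxb8 and Hoxc9.

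Hoxb8 (chromosome 11, 96281905 to 96285315) stood at 572, 565, 537 and 503 CPM in number 2, against 748, 727, 693 and 723 CPM in number 1 and 697, 753, 742 and 674 CPM in number 3. The change was -0.40 ± 0.05 (SE; edgeR adjusted p = 0.00118). Hoxa5 (chromosome 6, 52201754 to 52204587), which also patterns the forelimb-level cord and the lung, stood at 182, 193, 192 and 180 CPM in number 2, against 249, 248, 237 and 224 CPM in number 1 and 233, 237, 232 and 222 CPM in number 3 (-0.33 ± 0.04, 0.00155). In both genes numbers 1 and 3 overlapped each other and not number 2.

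Hoxc9 had the largest fall among these 6, -0.58 ± 0.07 (edgeR adjusted p = 0.000889), with 20.1, 21.7, 19.1 and 23.3 CPM in number 2, against 36.1, 38.9, 32.5 and 34.4 CPM in number 1 and 25.7, 27.4, 29.2 and 28.4 CPM in number 3. Hoxb6 (-0.50), Hoxa6 (-0.42) and Hoxb7 (-0.38) fell too. Hoxc5 (-0.23), Hoxd9 (-0.57), Hoxa10 (-0.49) and Hoxc10 (-0.27, edgeR adjusted p = 0.0373) were below the log2 mean of numbers 1 and 3. In each of these genes the mean CPM of number 2 lay between the means of numbers 1 and 3. The call of Hoxc10 was lost without any 1 of the 9 libraries on Myelin, Laminin + Myelin or PDL (adjusted p up to 0.161) and without the coat term. Above the log2 mean of numbers 1 and 3 were Hoxc8 (0.44), Hoxd10 (0.63), Hoxa11 (1.85) and Hoxd11 (1.98), the last a pair with 3 counts each in number 1. Of these, Hoxd10, Hoxa11 and Hoxd11 also had a number 2 mean CPM between those of numbers 1 and 3.

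**Figure D5:**
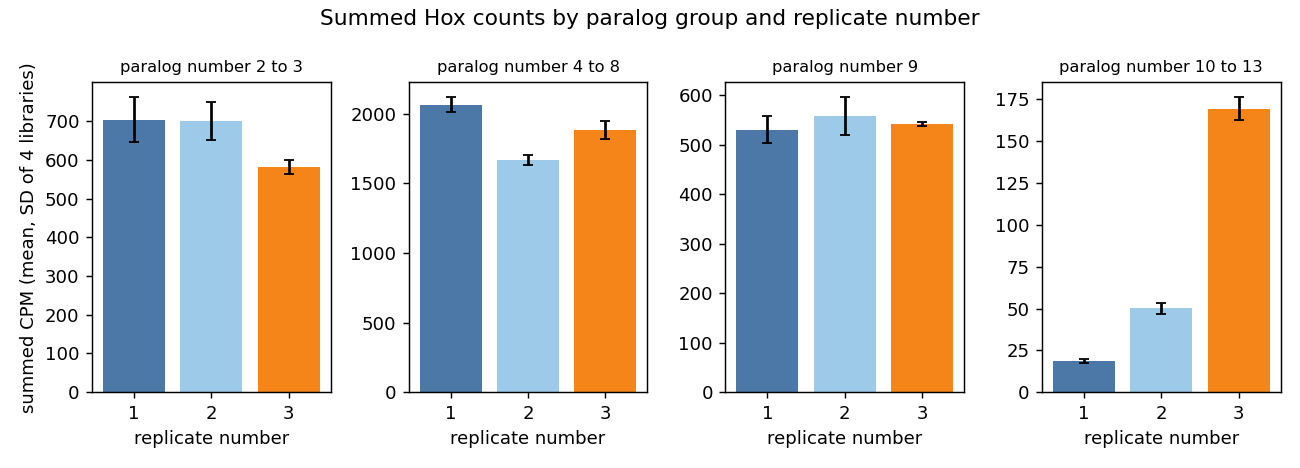
Summed CPM of the Hox genes of 4 paralog groups (bars, mean; error bars, SD of 4 libraries) in the libraries numbered 1, 2 and 3, each panel on its own linear axis from 0. The group numbered 10 to 13 stands at 18.8, 50.2 and 169 CPM in numbers 1, 2 and 3, while the group numbered 4 to 8 is lowest in number 2.

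Summed by paralog group, the genes numbered 10 to 13 stood at 18.8 ± 1.06 CPM in number 1, 50.2 ± 3.13 in number 2 and 169 ± 6.99 in number 3 (SD, n = 4 each). They made up 0.566%, 1.68% and 5.33% of all Hox counts. Those numbered 2 to 3 stood at 704 ± 58.1, 700 ± 48.3 and 581 ± 17.8 CPM in numbers 1, 2 and 3, those numbered 4 to 8 at 2063 ± 54.6, 1667 ± 35.9 and 1881 ± 66.4 CPM, and those numbered 9 at 530 ± 27.2, 557 ± 38.5 and 542 ± 4.67 CPM. Each coat held 1 library of each number, and the summed level of the genes numbered 10 to 13 averaged 81.1 CPM on Myelin, 79.6 on Laminin, 81.4 on Laminin + Myelin and 75.7 CPM on PDL.

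Noncoding RNAs of the clusters were counted in the same table. Hotair, transcribed between Hoxc11 and Hoxc12 from the other strand, had 0 counts in all 4 libraries numbered 1, 7 to 13 in number 2 and 59 to 80 in number 3. Hoxa11os, the antisense partner of Hoxa11, had 0 to 1 count in number 1, 13 to 33 in number 2 and 86 to 104 in number 3. Hottip, beside Hoxa13, had 0 counts in number 1 and 2 to 7 in number 3. The Mir196a-1 row, which lies near Hoxb9, had 10 to 13 counts in number 1, 8 to 15 in number 2 and 29 to 51 in number 3 (-1.86 ± 0.26 for number 1 over number 3, edgeR adjusted p = 0.000128), while Mir10a and Mir10b did not pass (0.19 ± 0.43 and 0.08 ± 0.29). Such rows count reads over the microRNA gene in an RNA library and not the mature microRNA. Of the 16 rows tested on this list, 3 rose and 4 fell in number 1 over number 3, with a median of -0.07, a share near the 43.9% of all genes.

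Genes that act with or upstream of Hox proteins are set here against the 43.9% of all genes that passed between numbers 1 and 3 (20.8% higher and 23.1% lower in number 1). Of the 9 TALE cofactors, which bind DNA together with Hox proteins, 5 rose in number 1 over number 3 (among them Meis2 by 0.66, Pbx3 by 0.59 and Pbx2 by 0.33) and Pknox1 fell (-0.18), with a median of 0.14. Of 8 axial regulators tested, 3 rose (among them Gdf11, a signal that advances the trunk-to-tail switch, by 0.21 ± 0.07) and 3 fell (Lin28a, T and Egr2). Cdx1 and Cdx4, direct activators of trunk and posterior Hox genes in the early embryo, had 0 counts in number 1, and at most 0.169 CPM in any library. Of 16 genes of the retinoic acid pathway, which switches on Hox genes of low number, 2 rose and 7 fell. Cyp26b1, which breaks retinoic acid down, was at 30.6 ± 1.56 CPM in number 1 and 12.8 ± 1.14 CPM in number 3 (SD, n = 4 each, 1.26 ± 0.08, edgeR adjusted p = 1.89e-07), and Aldh1a2, which makes it, fell by 1.28 ± 0.22 to 0.656 ± 0.177 CPM in number 1, against 1.58 ± 0.222 CPM in number 3. Of 26 Polycomb and trithorax genes, which hold Hox genes off or on, 3 rose and 2 fell, a smaller share than of all genes, with changes between -0.35 and 0.36.

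The motor columns are the best-known output of Hox genes in the cord. Of 15 genes tested on the list of motor column genes, 7 rose in number 1 over number 3 (Pou3f1 by 0.89, Isl1 by 0.83, Lhx1 by 0.82, Nos1 by 0.82, Lhx3 by 0.64, Ret by 0.48 and Epha4 by 0.27) and 3 fell (Runx1, Aldh1a2 and Gfra1), where 20.8% and 23.1% of all genes did. Foxp1, the Hox accessory factor of limb motor neurons, had -0.04 ± 0.07 (edgeR adjusted p = 0.689). Mnx1, also on the list, had -0.55 ± 0.46 (edgeR adjusted p = 0.363) at a mean of 0.324 CPM. Several of these genes also mark other neurons of the cord. The 6 motor neuron markers, Isl1, Lhx3 and Mnx1 among them, summed to 10.7 to 21.1 CPM a library. Lhx1 and Epha4 alone averaged 184 and 109 CPM. Of these 6 markers, 3 rose in number 1 over number 3 and 0 fell. The part of motor neurons in the changes of this list was not tested.

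Markers of other cells moved with the replicate number too. Of the 7 neuron markers, 6 were higher in number 1 than in number 3 (summed level 9614 to 10255 CPM and 7989 to 8141 CPM) and 6 of the 7 progenitor markers were lower (423 to 524 CPM and 692 to 902 CPM). All 5 microglia markers were lower in number 1 (summed 6.10 to 10.6 CPM) than in number 3 (22.8 to 45.7 CPM), as were both endothelial markers tested (the 4 on the list summed to 2.54 to 4.14 and 8.92 to 10.6 CPM). The somite and muscle markers summed to 0.365 to 0.705 CPM in number 1 and 0.950 to 1.04 CPM in number 3. Of 9 mesenchyme markers 3 rose and 2 fell in number 1 (34.1 to 40.8 CPM, against 22.97 to 31.5 CPM in number 3).

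Genes of the hindlimb bud, which also uses Hox genes numbered 10 to 13, were near 0: Tbx4 and Pitx1 had 0 counts in number 1 and at most 0.161 and 0.157 CPM in number 3. Shox2, on the same list, was at 27.1 ± 0.951 CPM in number 1 and 9.13 ± 1.73 CPM in number 3 (SD, n = 4 each). The 8 forebrain and midbrain markers summed to 18.7 to 20.8 CPM in number 1 and 6.47 to 7.22 CPM in number 3. Of the 4 tested, 2 rose in number 1 over number 3, Barhl2 (2.17 ± 0.11) and Lhx9 (0.45 ± 0.12), which neurons of the cord also express, and 2 fell, while Emx2 and Six3 had 0 counts in number 1 and at most 0.211 and 0.0966 CPM in number 3. The part of these other cells in the Hox differences was not tested, and what the number stands for and the Hox difference cannot be told apart.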

How the data were processed

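All values come from a single table. The authors deposited whole-number read counts per gene for 12 libraries without normalization, and their own log2 fold changes and adjusted p-values, used only as the authors' deposited values. Their 12 columns of normalized values were not used. Per the submitters' processing notes, CASAVA 1.8.2 and edgeR were run, on mm10 (GRCm38). Which aligner, counter, annotation and strand option were used is not given in the sources used here. Wells of myelin without cells are not analysed here.

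The 39 members and the gene lists were chosen with earlier results of these data known. The 3 entries naming no gene (outside genes, several places, several genes) entered neither the library sizes nor any test. Their share was 8.46% to 19.4%, 11.5% to 13.6% and 0.579% to 0.717%. Genes were filtered with filterByExpr on the 4 coats (15737 kept, 36 of them Hox genes; Hoxa13, Hoxb13 and Hoxd12 were not), scaled by TMM and tested with edgeR 4.0.16 quasi-likelihood fits in R 4.3.3 (limma 3.58.1), with Benjamini-Hochberg adjustment over all genes tested and a threshold of 0.05. Coats were fitted with no replicate block, and numbers with additive terms for coat and number. All 18 same-numbered pairs correlated above 0.1, so the numbers pair the libraries. This is a reading of the counts, as the labels give only the numbers. Without the block the biological coefficient of variation came to 0.205, and with it to 0.0901. Alternatives were the block, DESeq2 1.42.0, RLE size factors, no filter, a covariate for reads outside genes, no coat term, other detection levels and leaving out each library. DESeq2 with the block and the block together with the covariate were added after the data were seen. The fits were tested on simulated data with known changes, with the same spread for all genes of a comparison and, for the coats, no difference between numbers. Of 1.5-fold changes, 3% were recovered in Myelin against PDL and 93% between numbers 1 and 3. Of 2-fold changes, 68% and 100% were.

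CPM per kb uses the exon length of GENCODE M21 (GRCm38), which may differ from the authors' annotation. Values in every library are given for the 12 Hox genes of smallest adjusted p, the highest per length in each cluster, those at the expression limit and those whose call differs with the block. Other genes with values were chosen after these were seen, and results for a few genes are not reported here. Ratios of pooled counts have 95% Poisson-based intervals that cover counting error only. Replicates of a coat differed by more than sampling noise. Figures were drawn with matplotlib.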

Additional observations from a re-analysis of the deposited data

Results flagged for a closer look

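Among 51 sets of 4 libraries (a named gene in the libraries of 1 number), 6 had a library far from the other 3 by Dixon's test, where chance alone gives about 1 in 20. Hoxd4 was at 78.7 CPM in PDL number 1, against 54.5 to 57.4 CPM in the other libraries of that number, and at 63.4 CPM in Myelin number 3, against 68.3 to 69.3 CPM. Hoxb3 was at 375 CPM in PDL number 1, against 313 to 316 CPM. Hoxa10 was at 8.62 CPM in Laminin number 1, against 7.27 to 7.43 CPM, and Hoxc4 at 119 CPM in the same library, against 110 to 112 CPM. Hoxa9 was at 75.1 CPM in Myelin number 3, against 71.0 to 71.3 CPM. Each of these sets holds 1 library of each coat. The Hoxd4 and Hoxb3 values of PDL number 1 enter the comparisons with PDL given above.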

How the results depend on the processing

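The replicate block gave 3 Hox genes in Myelin against PDL and 3 in Laminin + Myelin against PDL, in place of 0 in each, and changed the count of Hox genes called in none of the other 4 coat comparisons. DESeq2 with the block gave 3 in Myelin against PDL, 1 in Laminin against PDL, 3 in Laminin + Myelin against PDL and 1 for myelin averaged over laminin. Leaving out 1 library at a time with the block gave 0 to 5, 0 to 2, 0 to 4 and 0 to 4 genes in those 4 comparisons, and without the block 0 in all of them. With the block, leaving out Laminin number 1 gave 5, 4 and 4 genes in Myelin against PDL, Laminin + Myelin against PDL and myelin averaged over laminin, leaving out PDL number 3 gave 3, 3 and 3 there and 2 in Laminin against PDL, and leaving out Laminin number 2 gave 1 in each comparison with PDL. The count between numbers 1 and 3 was 28 to 29 over the libraries left out, and that of number 2 against 1 and 3 was 11 to 20. The 28 genes at 1 CPM in all libraries stayed 28.

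With the share of reads outside genes in the fit, the change of Hoxd4 was 0.0707 in Myelin against PDL and 0.0725 in Laminin + Myelin against PDL, and with the block as well 0.0703 and 0.0696. With both terms Hoxa3 was at 0.113 and 0.0903, and Hoxb3 at 0.00716 in Myelin against PDL. The cause was not tested. Of 560 values of named genes under alternatives, 513 kept direction and side of the threshold and 7 turned. Counts near 0 limit what can be said of the genes numbered 11 to 13.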
